A study of Mus musculus with 16 samples.

Results

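METTL3 is the catalytic subunit of the nuclear enzyme complex that methylates adenosine at position N6 in messenger RNA (m6A), and this comparison set a mouse line in which Mettl3 was disrupted with Cas9 against control clones that received Cas9 without a guide RNA. The cells were mHiPPoE-2, an immortalised mouse hippocampal line of the Crl:CFW(SW)-024 background, grown untreated in DMEM with 10% FBS. The 2 METTL3 KO libraries came from 1 clonal isolate, and the 4 control libraries from 2 clonal isolates, called e1 and e4 here, with 2 libraries each. They are 6 of 16 libraries, and the others carry RBM45 knockouts or are not used here. Which isolate number belongs to e1 and which to e4 is not given in the sources used here, and the control columns were assigned because no other group was left for them. Total RNA was depleted of ribosomal RNA and sequenced from a kit that does not mark strand.

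A gene counts as a member when its gene-body reads differed between METTL3 KO and e1, and between METTL3 KO and e4, each at an adjusted p under 0.05 and in the same direction, by the quasi-likelihood test of edgeR, adjusted by the Benjamini-Hochberg method. By this rule 1923 of 15622 genes tested were called. Because only 1 knockout clone was sequenced, every p-value compares libraries of these lines and measures only the spread between libraries of a clone, and the effect of the lost gene and the history of the clone cannot be told apart.

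m6A is written mainly by METTL3 with its partner METTL14 and adaptor proteins, in a sequence context of the GGACT type, is removed by FTO and ALKBH5, and is bound by YTH-domain and other proteins. Marked transcripts are often shorter lived, and the mark also affects splicing and translation. In neural progenitors it is known for regulating the turnover of transcripts that govern the cell cycle and differentiation.

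Mettl3 itself was lower, but not absent, in the knockout line. It had 3.86 and 3.48 CPM (counts per 1000000 of the scaled library total) in METTL3 KO, against 9.81 and 9.09 CPM in e1 and 10.8 and 8.62 CPM in e4. Both knockout libraries lay below all 4 control libraries, with a log2 change of -1.38 ± 0.20 (SE) against e1 (adjusted p = 0.00096) and -1.41 ± 0.21 against e4 (adjusted p = 0.001). Tox4 overlaps Mettl3 on the other strand, and without strand the reads of the pair cannot be told apart. Summed over exon bins, Mettl3 averaged 5.77 CPM in METTL3 KO and 17.7 CPM in the controls.

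The share of reads left in METTL3 KO varied along the gene. In transcript Mettl3-201, the one with the longest coding sequence, which has 11 exons on the minus strand of chromosome 14, exon 2 held 1 and 0 counts in the METTL3 KO libraries, against 23 and 47 counts in e1 and 27 and 42 counts in e4. The ratio of METTL3 KO to control was 0.0185 (95% interval 0.000465 to 0.105, counting error only). Exon 3 held 11 and 12 counts in METTL3 KO, against 54 and 53 counts in e1 and 47 and 59 counts in e4, a ratio of 0.278. The ratio was 0.151 at exon 8 and 0.832 at exon 9, where METTL3 KO held 4 and 7 counts and the controls 6 to 13. Exon 2 was singled out after its values were seen. It lies wholly within the coding sequence, at chr14:52300184-52300401 of GRCm38 (218 bases, minus strand), and its sequence from GENCODE M21 is shown because it is the exon of this transcript with the fewest knockout reads for its length:
Mettl3 exon 2: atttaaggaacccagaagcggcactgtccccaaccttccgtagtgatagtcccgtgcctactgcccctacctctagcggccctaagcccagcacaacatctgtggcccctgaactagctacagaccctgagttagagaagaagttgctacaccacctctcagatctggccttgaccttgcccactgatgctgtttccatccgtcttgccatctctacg

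**Figure D1:**
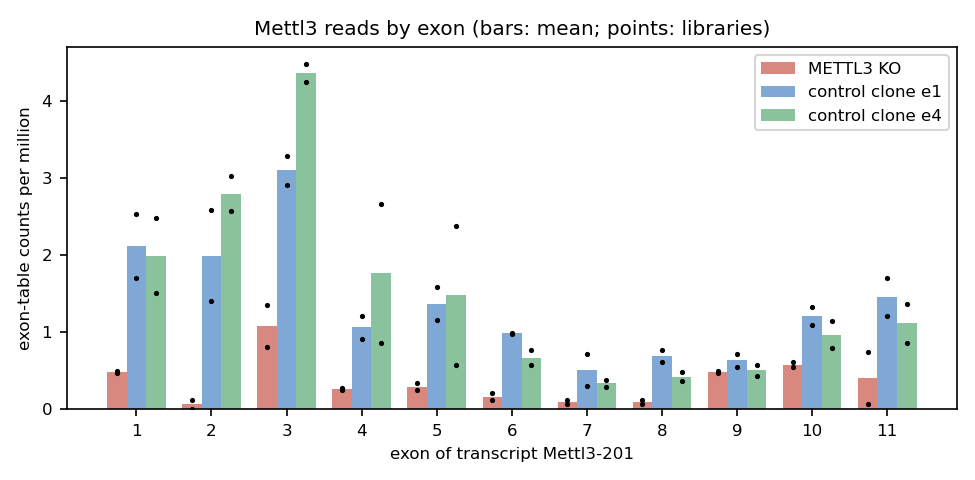
Exon-table CPM for each exon of transcript Mettl3-201 in METTL3 KO, control clone e1 and control clone e4 (bars, mean of 2 libraries; points, libraries). The METTL3 KO mean is lowest at every exon, with 1 and 0 counts at exon 2.

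Other genes of the m6A machinery were then examined. Of 10 writers tested, 1 was higher and 1, Mettl3, was lower, against 7.21% higher and 5.1% lower over all genes tested. Mettl14, the RNA-binding partner of METTL3, had 7.37 and 7.9 CPM in METTL3 KO, against 7.14 to 10 CPM over the 4 control libraries, and was not called (log2 change -0.10 against e1 and -0.25 against e4; Mettl14 was picked after its values were seen). Zcchc4, which methylates 28S ribosomal RNA, was higher, with 19.3 and 17.5 CPM in METTL3 KO against 10.7 to 13.6 CPM in the controls, a log2 change of 0.60 ± 0.16 against e1 and 0.58 ± 0.17 against e4. It was not called by DESeq2, nor in 5 of the 6 fits that left out 1 library. Neither eraser was called: Fto had 103 and 107 CPM in METTL3 KO against 63 to 105 CPM in the controls, and Alkbh5 had 62.6 and 62 CPM against 53.8 to 60.7 CPM.

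Among 12 readers tested, 2 rose and 1 fell; without METTL3 KO library 1 or library 2, 1 rose and 0 fell, and 0 fell without the first or without the second e1 library. Igf2bp2, which binds and stabilises m6A-bearing transcripts, had 57 and 49.9 CPM in METTL3 KO, against 13.6 and 14.6 CPM in e1 and 17.1 and 16.1 CPM in e4. Its log2 change was 1.92 ± 0.14 against e1 (adjusted p = 1.1e-05) and 1.69 ± 0.14 against e4 (adjusted p = 2.9e-05). Igf2bp3, of the same family, had 16.1 and 15.8 CPM in METTL3 KO, against 2.29 and 2.67 CPM in e1 and 8.23 and 11.7 CPM in e4; it was not called in exon sums. Prrc2a had 147 and 157 CPM in METTL3 KO, against 220 to 247 CPM in the controls. This single fall among 12 readers is near the 5.1% called lower over all genes tested. Rbm45, the RNA-binding protein targeted in the other lines, was picked after its values were seen and was not called, with 11 and 11.3 CPM in METTL3 KO against 13.3 to 17.1 CPM in the controls.

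Across the genome, more gene bodies were called higher in METTL3 KO than lower. Of 15622 genes tested, 1126 were called higher (7.21%) and 797 lower (5.1%), and with library number as a block 1640 were higher and 1379 lower. Against e1 alone 3659 genes differed in either direction (23.4%), and against e4 alone 4070 genes (26.1%). The 2 control clones themselves differed at 2518 genes (16.1%), or 4272 with the block. Of the members, 206 of those higher and 110 of those lower also differed between the control clones.

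Members that rose did so by larger folds than members that fell. The median size of the log2 change against the mean of the controls was 1.44 among genes called higher and 0.81 among genes called lower. These folds come from the values that made the calls. Median control levels also differed, at 4.21 CPM for genes called higher and 29.2 CPM for genes called lower. The part of level and depth in the difference in folds was not tested. At least a 2-fold difference from both clones was seen for 617 of the higher and 194 of the lower genes, and at least an 8-fold difference for 173 and 26 genes. In every called gene both METTL3 KO libraries lay outside the range of the 4 controls, as they did in 6355 of all 15622 genes tested (40.7%). Genes near 0 in 1 line were also counted. In 63 genes, both METTL3 KO libraries had at least 2 CPM and every control library under 0.5 CPM. Without predicted genes and rows that join several genes, 52 remained. The reverse pattern was seen in 4 genes, Cdh10, Insc, Plau and Tspyl5. By the same limits, 4 genes were high in e1 alone and 3 in e4 alone. These are gene-body counts, in which reads of overlapping genes on opposite strands cannot be told apart. P2ry12 was among the 63, with 3.86 and 3.98 CPM in METTL3 KO, but its exons had 0.12 and 0.41 CPM there. Plau, the urokinase protease, was chosen after its values were seen and had 0.234 and 0.19 CPM in METTL3 KO against 2.19 to 4.12 CPM in the controls.

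**Figure D2:**
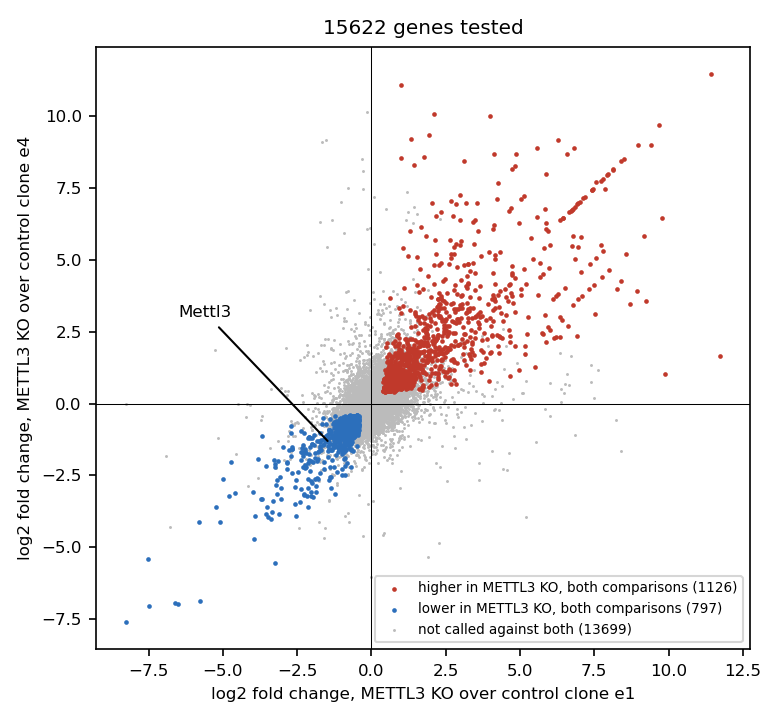
Fitted log2 fold change of each tested gene in METTL3 KO over control clone e1 (x axis) and over control clone e4 (y axis), with 1126 genes called higher in red and 797 called lower in blue. Both axes share the METTL3 KO libraries, and the most extreme fitted values belong to genes with 0 counts in a clone, which depend on a small added count. Points called higher reach further from 0 than points called lower.

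The 12 largest rises were of genes at under 1 CPM in every control library. Ildr2, an immunoglobulin-like receptor, had 25 and 25.1 CPM in METTL3 KO and 0 counts in all 4 control libraries, at least 487-fold higher against a floor of 3 counts over the control libraries. Adam23, a cell-surface protein of the ADAM family that lacks protease activity, had 8.42 and 6.64 CPM in METTL3 KO and 0 counts in the controls, at least 141-fold higher. For both genes the knockout libraries were clearly separated from the controls, and both overlap a gene on the other strand.

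C3, the central complement component, had 33 and 19.7 CPM in METTL3 KO, with 594 counts against 2 counts in the controls, a ratio of 710 (95% interval 196 to 5875, counting error only). Zbtb16, a zinc-finger repressor also called PLZF, had 10.3 and 7.65 CPM in METTL3 KO and 2 counts in the controls, a ratio of 249.8 (68.3 to 2076). Pax2, a transcription factor of the developing midbrain and kidney, had 6.08 and 9.67 CPM in METTL3 KO and also 2 counts in the controls, both in the second e4 library, a ratio of 245 (67 to 2037). The 3 genes were thus at or near 0 in every control library.

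Stox2, a winged-helix protein, had 48.7 and 42.7 CPM in METTL3 KO, against 0.127 and 0.321 CPM in e1 and 0.309 and 0.141 CPM in e4, a log2 change of 7.56 ± 0.27 against e1 and 7.70 ± 0.30 against e4 (adjusted p = 5e-07 and 9e-07). Bicc1, an RNA-binding translational regulator, had 24.2 and 23.3 CPM in METTL3 KO, against 0 to 0.51 CPM in the controls. The other members of this group, Prom1 (the CD133 glycoprotein), Plcl2, Rspo3, Cxcl1 and Cdh6, had 4.55 to 32.6 CPM in METTL3 KO and at most 0.823 CPM in any control library. All 12 were also called higher in exon sums.

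The 12 largest falls were of genes with diverse known roles. Cdh10, a type II cadherin of neural tissue, had 0 and 0.19 CPM in METTL3 KO, against 5.8 and 8.67 CPM in e1 and 2.06 and 2.47 CPM in e4; with 3 counts in METTL3 KO and 308 in the controls, it was 43-fold higher in the controls (95% interval 14.6 to 209). Col4a3 and Col4a4, neighbouring basement-membrane collagen genes read from a shared start region, fell together. Col4a3 had 0.702 and 1.39 CPM in METTL3 KO against 11 to 20 CPM in the controls, and Col4a4 had 1.87 and 2.28 CPM against 18.5 to 34.6 CPM. Olfml2b, a secreted olfactomedin-domain protein, had 1.29 and 0.822 CPM in METTL3 KO against 10.9 to 12.4 CPM in the controls.

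Tacr1, the substance P receptor, had 2.34 and 1.9 CPM in METTL3 KO, against 27.5 and 27.2 CPM in e1 and 18.5 and 22.5 CPM in e4, a log2 change of -3.72 ± 0.19 against e1 (adjusted p = 2e-06) and -3.31 ± 0.20 against e4 (adjusted p = 5.2e-06). Tll1, a tolloid-type metalloprotease, had 2.57 and 1.39 CPM in METTL3 KO against 15.6 to 39.4 CPM in the controls. Alkal1, a ligand of the receptor kinase ALK, had 0.819 and 0.506 CPM in METTL3 KO against 5.25 to 8.6 CPM in the controls. Sytl5, Jaml, Insc and Klhl30 also fell, and among them Sytl5, Jaml and Klhl30 differed between the control clones as well. Myl9, described below with the contractile genes, was the remaining gene of this group.

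**Figure D3:**
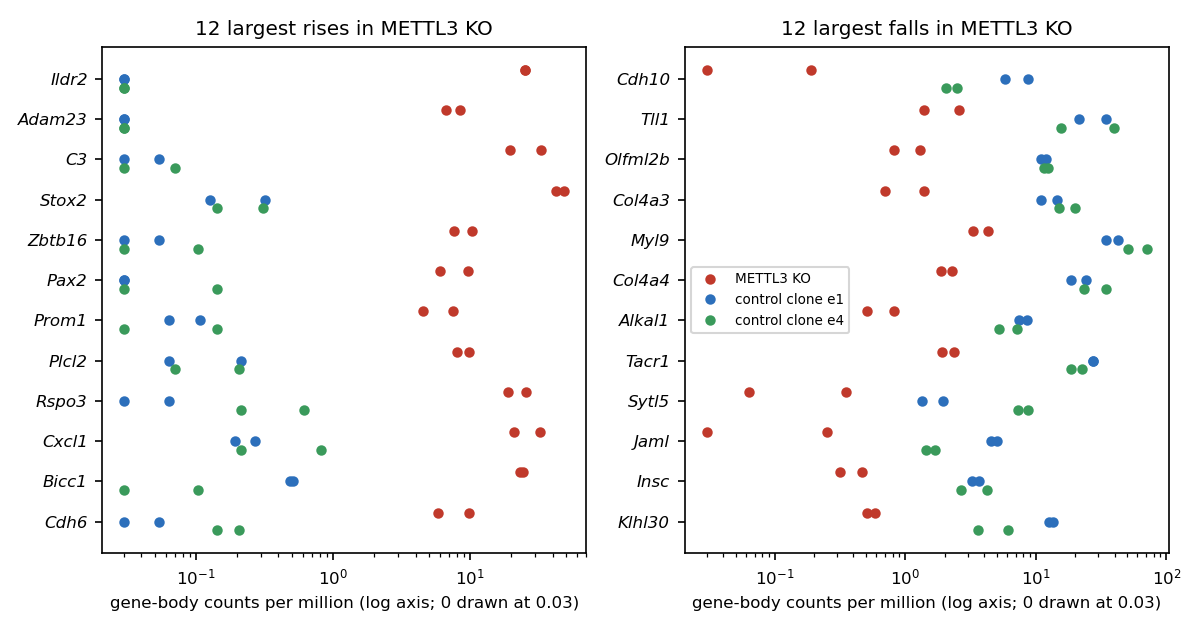
Gene-body CPM in each library (log axis, with 0 drawn at 0.03) for the 12 genes with the largest rises and the 12 with the largest falls in METTL3 KO, with METTL3 KO in red, clone e1 in blue and clone e4 in green. The red points are separated from all blue and green points in every row.

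Most tested target genes of the tumour suppressor p53 rose in METTL3 KO. Of 17 tested, 11 rose and 0 fell, and the median log2 change over the 17 was 1.36, against 0.02 over all genes tested. Cdkn1a, the p21 inhibitor of cyclin-dependent kinases, had 59.2 and 39.3 CPM in METTL3 KO, against 2.29 and 2.62 CPM in e1 and 8.44 and 10.6 CPM in e4. The knockout line was highest and the 2 control clones also differed: the log2 change was 4.30 ± 0.24 against e1 (adjusted p = 3e-06), 2.35 ± 0.21 against e4 (adjusted p = 5.5e-05) and -1.96 for e1 over e4.

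Fas, the death receptor, had 22.8 and 17.4 CPM in METTL3 KO, against 3.95 and 3.21 CPM in e1 and 2.98 and 2.54 CPM in e4, with log2 changes of 2.48 ± 0.20 and 2.86 ± 0.22. Eda2r, a receptor of the tumour necrosis factor family, had 32.2 and 21.9 CPM in METTL3 KO, against 0.319 and 0.481 CPM in e1 and 3.81 and 5.16 CPM in e4. Trp53inp1, a p53-induced nuclear protein, had 55 and 34.1 CPM in METTL3 KO against 3.32 to 8.69 CPM in the controls. Mdm2, the ubiquitin ligase that degrades p53, was picked after its values were seen and had 86 and 73.1 CPM in METTL3 KO against 23 to 31.3 CPM in the controls. Ccng1, Bbc3, Zmat3, Aen, Btg2 and Tnfrsf10b completed the 11, and leaving out any 1 library left 8 to 13 called.

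More genes of DNA replication and mitosis fell than rose. Of 20 S phase genes tested 7 fell and 1 rose, with a median log2 change of -0.40, and of 19 G2/M genes 7 fell and 0 rose, with a median of -0.42. Pcna, the sliding clamp of replication, had 43.2 and 39.7 CPM in METTL3 KO against 59.9 to 82 CPM in the controls, a log2 change of -0.61 ± 0.15 against e1 and -0.83 ± 0.15 against e4. Ccnb1, the mitotic cyclin B1, had 24.3 and 31.7 CPM in METTL3 KO against 46.5 to 54 CPM in the controls, with changes of -0.77 ± 0.16 and -0.83 ± 0.16.

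Mcm2 and Mcm3 of the replicative helicase fell, as did Ccne2 (cyclin E2), Ube2c (the ubiquitin-conjugating enzyme of the anaphase-promoting complex), Kif20a (a cytokinesis kinesin) and Nusap1 (a spindle protein), with log2 changes between -1.05 and -0.59 against single control clones. Fen1, a flap endonuclease of replication, was the 1 S phase gene that rose, with 46.6 and 40.6 CPM in METTL3 KO against 24.2 to 32.9 CPM in the controls. It was chosen after its values were seen. Fen1 was not called under 7 alternatives, among them DESeq2 and the fit without a filter on low counts. A single rise among 20 genes is near the 7.21% called higher over all genes tested. The calls depended on both knockout libraries, while the medians stayed below 0. Without METTL3 KO library 1, 0 S phase and 0 G2/M genes were called lower, with medians of -0.47 and -0.35, and without library 2 the counts were 0 and 1, with medians of -0.42 and -0.54; without the first e1 library they were 2 and 3. Of 19 replication-dependent histone genes, 1, Hist1h2bc, was lower, and 0 to 12 when single libraries were left out; the block gave 7.

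Several chemokine genes and a cytokine receptor gene rose. Of 13 genes tested in the chemokine and cytokine list, which includes the receptor Il1rl1, 5 rose and 1 fell, with a median log2 change of 0.97. The block gave 8 higher, and 6 of the 13 differed between the control clones. The median was 1.61 without the first e1 library, 1.76 without the second e4 library, 1.57 under a filter of at least 2 CPM and 1.87 in exon sums. Fits that left out 1 library called 5 or 6 higher, and called 0 lower without METTL3 KO library 1, library 2 or the first e1 library. Ccl2, a monocyte chemoattractant, had 82.7 and 60.5 CPM in METTL3 KO, against 3.51 and 2.41 CPM in e1 and 6.28 and 5.72 CPM in e4, with log2 changes of 4.60 ± 0.22 (adjusted p = 1.3e-06) and 3.58 ± 0.21 (adjusted p = 4.8e-06). Ccl7, its neighbour in the chemokine cluster, had 21.1 and 17.6 CPM in METTL3 KO against 0.637 to 2.12 CPM in the controls. Cxcl1, a neutrophil chemoattractant, had 32.6 and 21 CPM in METTL3 KO, against 0.191 and 0.267 CPM in e1 and 0.823 and 0.212 CPM in e4.

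Il1rl1, the receptor of interleukin-33, had 97.3 and 98.8 CPM in METTL3 KO, against 26.8 and 26.3 CPM in e1 and 18.1 and 18.6 CPM in e4. Ccl20 also rose, at low levels, with 1.75 and 0.885 CPM in METTL3 KO and at most 0.0637 CPM in the controls. Cx3cl1, the membrane-bound chemokine fractalkine, was the 1 member that fell, with 25 and 24.4 CPM in METTL3 KO against 36.5 to 45.8 CPM in the controls. Lcn2 and Saa3, secreted acute-phase proteins, had 5.5 and 3.85 CPM and 6.32 and 3.1 CPM in METTL3 KO, while in the controls Lcn2 had 0 counts and Saa3 at most 0.107 CPM. Ccl20, Cx3cl1, Lcn2 and Saa3 were chosen after their values were seen.

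Some genes of interferon response and antigen presentation rose. Of 11 interferon-response genes tested, Ifit2 and Ifi27 rose and 0 fell, with a median log2 change of 0.60. That median was 0.36 without the second e1 library and 0.33 under a filter of at least 2 CPM, and 1 gene rose without METTL3 KO library 1. Ifit2 had 38 and 30.8 CPM in METTL3 KO against 16.4 to 19.2 CPM in the controls. Of 7 antigen-presentation genes 3 rose and 0 fell: Nlrc5, the activator of class I genes, had 15 and 13.4 CPM in METTL3 KO against 4.08 to 6.85 CPM in the controls, and H2-D1, a class I heavy chain, had 46 and 39.8 CPM against 19.6 to 28.1 CPM. Tap1, a peptide transporter, had 4.09 and 2.65 CPM against 0.695 to 1.4 CPM in the controls, and 1 antigen-presentation gene was called without METTL3 KO library 1, 2 without library 2 and 1 without the second e1 library.

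Contractile genes typical of smooth muscle and myofibroblasts fell in METTL3 KO. Of 13 genes tested 6 fell and 0 rose, with a median log2 change of -0.88, and leaving out single libraries left 4 to 8. Myl9, a regulatory light chain of myosin, had 4.33 and 3.29 CPM in METTL3 KO, against 42.2 and 34.3 CPM in e1 and 70.4 and 50.5 CPM in e4, with log2 changes of -3.36 ± 0.23 (adjusted p = 1e-05) and -4.02 ± 0.23 (adjusted p = 4.7e-06). Acta2, smooth muscle actin, had 90.2 and 96.9 CPM in METTL3 KO, against 402 and 278 CPM in e1 and 820 and 539 CPM in e4. Tagln, an actin-binding protein, had 30.3 and 31.8 CPM in METTL3 KO against 110 to 249 CPM in the controls, and Tpm2 (tropomyosin) had 39 and 39.9 CPM against 67.3 to 128 CPM. Tpm1 and Flna were the other members that fell.

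Matrix genes moved in both directions. Among 25 matrix and mesenchymal genes 7 rose and 3 fell, and 4 rose and 0 fell without METTL3 KO library 1. Mmp3, the protease stromelysin-1, had 47.6 and 27 CPM in METTL3 KO, against 0.319 and 0.267 CPM in e1 and 1.13 and 0.636 CPM in e4, with log2 changes of 6.94 ± 0.40 and 5.43 ± 0.37. Mmp2, a gelatinase, had 14.5 and 6.95 CPM in METTL3 KO against 0.823 to 2.19 CPM in the controls, and Thbs2 and the transcription factor Prrx1 were also higher. Vim, the intermediate filament of mesenchymal cells and a fixed cell type marker picked for mention after its values were seen, had 437 and 452 CPM in METTL3 KO against 838 to 1083 CPM in the controls.

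Collagens varied between the control clones at 11 of 16 genes tested, and 2 rose and 3 fell against both. Neither rise was called without METTL3 KO library 1, without library 2 or without the second e1 library. Col6a3 had 9.12 and 14.4 CPM in METTL3 KO, against 46.9 and 78.1 CPM in e1 and 66 and 121 CPM in e4. Col11a1 had 4.68 and 2.91 CPM in METTL3 KO, against 93.9 and 99.3 CPM in e1 and 13 and 16.8 CPM in e4. Col12a1 was higher, with 200 and 190 CPM in METTL3 KO against 86.8 to 124 CPM in the controls, and so was Col8a1. Col1a1, the main fibrillar collagen, was chosen after its values were seen and differed in opposite directions from the 2 control clones. It had 373 and 341 CPM in METTL3 KO, against 1062 and 1080 CPM in e1 and 35.2 and 30.4 CPM in e4, and was not called.

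Promoter sequences are given for a chemokine, a protease and a contractile gene from these groups, as examples that hold a match. They run from 250 bases before to 50 bases after the start site and come from RefSeq on GRCm38.p6. Capitals mark a match to the NF-kappaB motif (GGGA and TTCC with 2 bases between) in Cxcl1, chr5:90890995-90891294, plus strand; to TGANTCA (the AP-1 type) in Mmp3, chr9:7445572-7445871, plus strand; and to the CArG box bound by serum response factor in Myl9, chr2:156775214-156775513, plus strand. In Cxcl1 the capitals are 2 overlapping matches, 1 on each strand.
Cxcl1 promoter: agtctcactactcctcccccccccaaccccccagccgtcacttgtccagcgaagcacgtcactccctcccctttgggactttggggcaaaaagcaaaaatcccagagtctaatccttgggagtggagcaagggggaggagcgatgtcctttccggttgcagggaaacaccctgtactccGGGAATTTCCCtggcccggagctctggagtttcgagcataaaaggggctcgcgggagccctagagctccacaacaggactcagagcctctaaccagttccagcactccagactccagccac
Mmp3 promoter: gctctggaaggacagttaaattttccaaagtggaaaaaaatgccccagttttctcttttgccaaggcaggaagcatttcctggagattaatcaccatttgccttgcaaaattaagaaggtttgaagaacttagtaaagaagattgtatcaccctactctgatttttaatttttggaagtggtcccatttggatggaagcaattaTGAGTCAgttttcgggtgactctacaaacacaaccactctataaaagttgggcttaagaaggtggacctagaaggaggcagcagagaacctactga
Myl9 promoter: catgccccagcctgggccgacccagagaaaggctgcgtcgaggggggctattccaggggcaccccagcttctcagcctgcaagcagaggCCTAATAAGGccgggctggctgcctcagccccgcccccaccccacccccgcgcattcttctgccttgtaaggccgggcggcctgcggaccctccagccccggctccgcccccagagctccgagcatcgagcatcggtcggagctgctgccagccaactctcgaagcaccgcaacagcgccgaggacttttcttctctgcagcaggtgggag

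Searched on both strands of 32851 such promoters, the NF-kappaB motif was found in 1.47%, TGANTCA in 7.81% and the CArG box in 1.63%. The NF-kappaB motif and the CArG box were chosen after the members' values were seen. Of the 12 largest rises 8 had a promoter in the table, and 1 held TGANTCA and 1 held the NF-kappaB motif. Of the 12 largest falls 9 had one, and 0 held TGANTCA, 1 held the NF-kappaB motif and 1 held the CArG box. The NF-kappaB match among the rises was that of Cxcl1, and the CArG match among the falls was that of Myl9. Both promoters are printed above because they hold a match. A gene was counted when any of its promoters held a match, while the shares are per promoter, so counts and shares cannot be compared directly. TGACGTCA (the cyclic AMP response type, 1.79% of promoters) was in 0 of either group, and the interferon-regulatory-factor motif (TTTC repeated with 2 bases between, 3.44%) was in 0 of the rises and 2 of the falls. Not every named gene of the groups of Cxcl1, Mmp3 and Myl9 held a match. The promoters of Ccl20, Cx3cl1 and Tpm2 held none of these motifs. A match describes letters in this window and not a bound site.

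Some feedback genes of ERK signalling fell. Of 25 immediate-early and ERK feedback genes 5 fell and 0 rose, with a median log2 change of -0.18; the block gave 2 higher, and 3 fell without METTL3 KO library 1 or without library 2. Dusp5, a nuclear phosphatase of ERK, had 5.73 and 7.14 CPM in METTL3 KO, against 27.6 and 23.8 CPM in e1 and 27.1 and 26.6 CPM in e4, with log2 changes of -1.97 ± 0.16 and -2.03 ± 0.16 (adjusted p = 2.7e-05 for both). Dusp4, a related phosphatase, had 10.3 and 12 CPM in METTL3 KO against 24.4 to 40 CPM in the controls. The ETS factors Etv4 and Etv5 had 8.89 and 8.4 CPM and 21.2 and 25.3 CPM in METTL3 KO, against 13.8 to 15.4 CPM and 35.7 to 48.1 CPM in the controls. Fosb was the fifth, while Fos, Egr1, Dusp6 and the Spry genes were not called.

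Ligands and antagonists of the TGF-beta and BMP pathway changed. Of 20 genes tested 7 rose and 2 fell, with a median log2 change of 0.53. The activin subunits moved in opposite directions: Inhba had 6.67 and 10 CPM in METTL3 KO, against 76.8 and 87.3 CPM in e1 and 34.9 and 44.3 CPM in e4, while Inhbb had 33.3 and 30.6 CPM in METTL3 KO, against 7.2 and 8.56 CPM in e1 and 10.4 and 11.2 CPM in e4. Fst, the activin antagonist follistatin, had 6.43 and 4.74 CPM in METTL3 KO, 0 counts in e1, and 0.412 and 0.495 CPM in e4. The ligand Tgfb3 had 36.3 and 37.9 CPM in METTL3 KO against 7.44 to 18.9 CPM in the controls. The receptor Acvr1 was the other member that fell.

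In the Wnt and Lgr list 7 of 22 genes tested rose and 2 fell, with a median log2 change of 0.50. Rspo3, a secreted protein that amplifies Wnt signalling through Lgr receptors, had 25.6 and 19 CPM in METTL3 KO, against 0.0637 and 0 CPM in e1 and 0.617 and 0.212 CPM in e4. Lgr6, one of those receptors, had 9.59 and 12.4 CPM in METTL3 KO, against 50.1 and 48.4 CPM in e1 and 129 and 143 CPM in e4, with log2 changes of -2.14 ± 0.16 and -3.60 ± 0.17. Sfrp1, a secreted Wnt antagonist, had 60.7 and 43.5 CPM in METTL3 KO, against 3.19 and 3.32 CPM in e1 and 0 and 0.0707 CPM in e4. Nkd2, an inhibitor of Dishevelled, rose too, with 4.56 and 4.61 CPM in METTL3 KO and at most 0.636 CPM in the controls, as did Axin2 and Notum, feedback targets of the pathway.

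Notch receptors and ligands were higher where called: 4 of 10 tested rose and 0 fell, with a median log2 change of 0.18. The median was 0.06 without the first e4 library, 0.12 without the first e1 library and 0.33 without the second e4 library. Notch3 had 30.9 and 23.2 CPM in METTL3 KO against 1.34 to 5.09 CPM in the controls, with log2 changes of 4.03 ± 0.28 and 2.69 ± 0.26. Notch1 had 57 and 56.7 CPM in METTL3 KO against 39.2 to 40.8 CPM in the controls. Its call was lost when either METTL3 KO library or either e1 library was left out. The ligand Jag2 had 5.97 and 4.8 CPM in METTL3 KO against at most 0.382 CPM in the controls, and Dll1 had 49 counts in METTL3 KO and 3 counts in the controls, a ratio of 39 (95% interval 12.6 to 196, counting error only). The targets Hes1, Hey1 and Nrarp were not called.

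**Figure D4:**
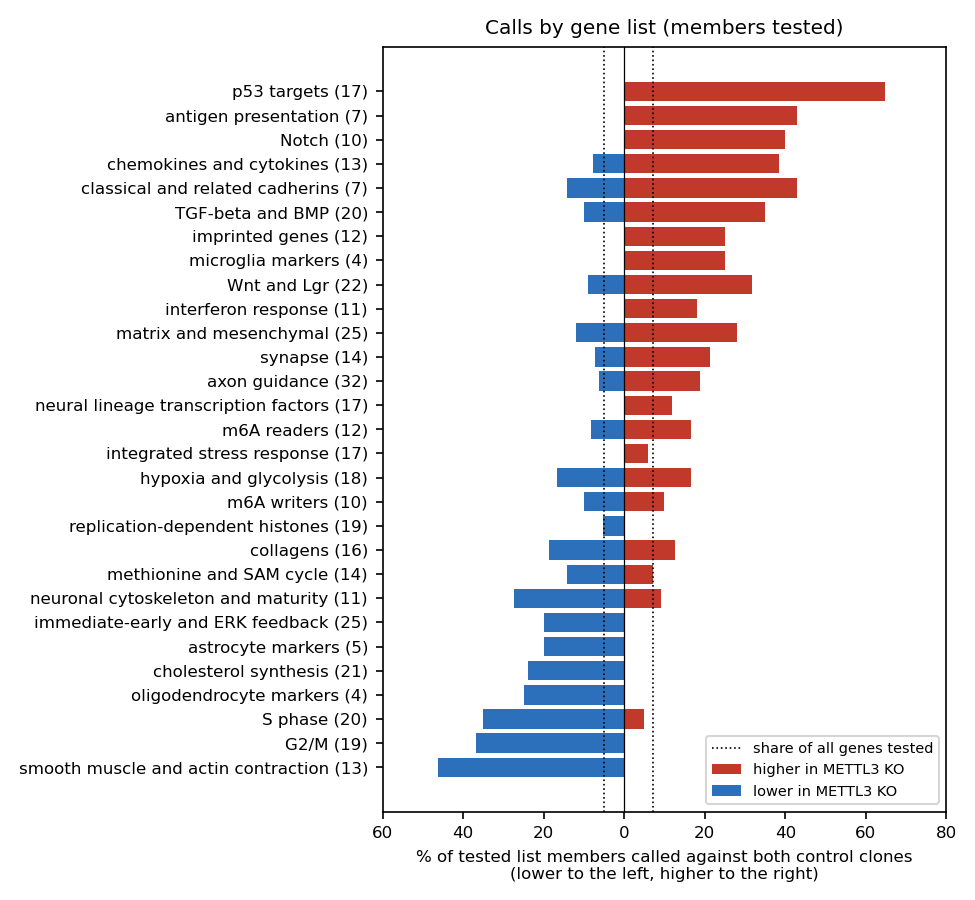
Share of the tested members of each gene list that were called higher (right, red) or lower (left, blue) in METTL3 KO against both control clones, with the number tested in brackets and dotted lines at the shares over all genes tested (7.21% higher, 5.1% lower). Lists without a call are not drawn, and p53 targets and the contractile list lie at the 2 ends.

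Some markers of mature neurons were near 0 in all 6 libraries, while Map2 was not. Rbfox3, Snap25 and Syt1, which such neurons express, had at most 0.585 CPM and were not tested, whereas Map2 had 81.5 and 88.9 CPM in METTL3 KO against 96.1 to 143 CPM in the controls and was not called. Tubb3 had 1.64 and 2.15 CPM in METTL3 KO against 0.51 to 1.07 CPM in the controls. Summed exon levels of the 6 neuronal markers, most of it Map2, were 64.3 to 67.6 CPM in METTL3 KO and 88.8 to 109.8 CPM in the controls. Summed exon levels of the astrocyte, oligodendrocyte and endothelial markers were at most 1.72 CPM in METTL3 KO and 1.58 CPM in the controls, and microglial markers summed to 3.32 to 3.38 CPM in METTL3 KO and 3.91 to 4.75 CPM in the controls. Mesenchymal markers (Col1a1, Acta2 and Vim; Col3a1 has no row of its own) summed to 1990 to 2011 CPM in METTL3 KO and 2753 to 5213 CPM in the controls. The label of a hippocampal neuronal line is thus matched by few mature neuronal markers, and the part of these differences in the gene groups above was not tested.

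Of 11 neuronal cytoskeleton and maturity genes tested, 3 fell and 1 rose; the block gave 5 lower. Elavl2, a neuronal RNA-binding protein, had 0 counts in both METTL3 KO libraries, against 2.74 and 2.78 CPM in e1 and 1.85 and 1.63 CPM in e4, at least 19-fold lower in METTL3 KO against a floor of 3 counts over its libraries. Uchl1, a neuronal deubiquitinase, had 3.86 and 3.85 CPM in METTL3 KO, against 20.1 and 20.2 CPM in e1 and 7.82 and 7.28 CPM in e4, and the tubulin Tubb2b had 9.83 and 9.35 CPM against 17.9 to 32.3 CPM. Mapt, the microtubule protein tau, was higher, with 3.86 and 2.28 CPM in METTL3 KO against 0.382 to 0.848 CPM in the controls. This single rise among 11 genes is near the 7.21% called higher over all genes tested.

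Among 14 synapse genes 3 rose and 1 fell, against 7.21% called higher and 5.1% called lower over all genes tested. The single fall is near that share. Nrxn2, a presynaptic adhesion protein, had 11 and 9.1 CPM in METTL3 KO against 0.107 to 0.309 CPM in the controls, with log2 changes of 6.01 ± 0.38 and 5.51 ± 0.39. Grin2a, an NMDA receptor subunit, had 7.37 and 8.47 CPM in METTL3 KO, against 1.27 and 0.749 CPM in e1 and 0.206 and 0.141 CPM in e4. Cacna1a, a calcium channel subunit, had 22.5 and 18.4 CPM against 6.07 to 8.02 CPM in the controls. Syn1 was called lower in gene bodies only; Timp1 lies inside it on the other strand, and in exon sums Syn1 was not called.

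Of 32 axon guidance genes 6 rose and 2 fell, against 7.21% called higher and 5.1% called lower over all genes tested. The count of falls is near that share. Of the 32 genes, 18 differed between the control clones, and the block gave 4 lower. Without METTL3 KO library 1, 3 rose and 0 fell, without library 2, 3 rose and 2 fell, without the first e1 library 3 rose and 1 fell, and without the second e1 library 4 rose and 0 fell. Sema3c, a secreted semaphorin, had 59 and 54.5 CPM in METTL3 KO, against 8.41 and 6.53 CPM in e1 and 6.17 and 5.44 CPM in e4, with log2 changes of 2.93 ± 0.16 (adjusted p = 2.4e-06) and 3.29 ± 0.17 (adjusted p = 2.9e-06). Slit3, a ligand of Robo receptors, had 220 and 195 CPM in METTL3 KO, against 102 and 123 CPM in e1 and 38.6 and 60.5 CPM in e4. The receptors Plxna4 and Ephb2 were also higher. Of 7 cadherins tested, 3 rose and 1 fell. Cdh11 had 36.7 and 32 CPM in METTL3 KO, against 5.8 and 5.19 CPM in e1 and 0.412 and 0.848 CPM in e4, and Cdh6 and Cdh4 rose while Cdh10 fell.

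Some genes of cholesterol synthesis fell in METTL3 KO. Of 21 tested 5 fell and 0 rose, with a median log2 change of -0.63. Idi1, the isopentenyl diphosphate isomerase, had 11.7 and 9.29 CPM in METTL3 KO against 14.1 to 26.2 CPM in the controls. Stard4 and Msmo1 had log2 changes of -0.86 to -0.74 against single clones, and Lss also fell. The count was 2 without METTL3 KO library 1, 0 without METTL3 KO library 2 and 2 without the first e1 library, and 9 of the 21 differed between the control clones.

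Stress and metabolic lists were also counted, beside 7.21% called higher and 5.1% called lower over all genes tested. A single call in a list of 14 or 17 genes is near those shares. Of 17 integrated stress response genes, 1 (Cebpb) rose, 0 without METTL3 KO library 1, and 0 of 11 unfolded protein response genes were called by edgeR (1 lower at an unadjusted p under 0.05 against both clones, and 1 lower by DESeq2). A further list held genes of the methionine cycle, which supplies the methyl donor of METTL3, and of polyamine synthesis. In it 1 of 14 genes rose (Mat2b, a regulatory subunit of methionine adenosyltransferase) and 2 fell (Srm, a polyamine gene, and Mtrr). The block gave 4 lower. Without METTL3 KO library 1 or the first e1 library, 0 of these genes were called in either direction. Mtrr was not called under 7 alternatives and Mat2b under 6. Of 18 hypoxia and glycolysis genes 3 rose and 3 fell, and 0 were called lower without METTL3 KO library 1 or without library 2 and 1 without the first or the second e1 library. Egln3, an oxygen-sensing prolyl hydroxylase, had 4.68 and 3.67 CPM in METTL3 KO against 0.107 to 0.206 CPM in the controls, while Pfkp, a phosphofructokinase, had 24.6 and 25.8 CPM against 39 to 44.6 CPM. Of 12 imprinted genes tested Igf2r, Ppp1r9a and Slc22a18 rose and 0 fell, and 1 was called without METTL3 KO library 1 or without library 2.

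Exon bins gave a second count of the same fragments. Of 14436 exon sums tested, 1009 were called higher (6.99%) and 944 lower (6.54%). The order turned in exon sums under some alternatives: DESeq2 called 743 higher and 791 lower, the block 1289 and 1301, and the fit without a filter 1040 and 1086. It also turned without the second e1 library (612 higher and 621 lower), the first e4 library (1073 and 1161) and the second e4 library (1042 and 1192). Of the 1126 genes called higher in gene bodies, 779 were called higher in exon sums (69.2%), 224 were tested and not called, and 123 were not tested. Of the 797 called lower, 630 were called lower in exon sums (79.1%), 133 were not called and 1, Tmem56, was called in the opposite direction. Tmem56 had 29.5 and 21.6 CPM in METTL3 KO against 37.7 to 55.9 CPM in the controls over its gene body, and averaged 2.8 CPM in METTL3 KO and 0.152 CPM in the controls over its exons.

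A gene on the other strand overlapped 592 of the 1126 higher genes (52.6%) and 358 of the 797 lower genes (44.9%), against 7874 of all 15622 genes tested (50.4%). P2ry12, a microglial receptor, was called higher in gene bodies, at 3.86 and 3.98 CPM in METTL3 KO against at most 0.127 CPM in the controls, but its exons averaged 0.264 CPM in METTL3 KO and 0.0912 CPM in the controls. Cx3cr1 likewise had 32.5 and 32.4 CPM over the gene body in METTL3 KO and 33 to 39.5 CPM in the controls, and at most 0.123 CPM over its exons in any library.

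Members were spread unevenly over the chromosomes. On chromosome 12, 17% of the 600 genes tested were called higher and 1.5% lower, with a median log2 change of 0.27 against e1 and 0.38 against e4. On chromosome 14, which carries Mettl3, 13.5% were higher and 2.22% lower, with medians of 0.21 and 0.40, and 0 of 9 tested neighbours of Mettl3 were called by edgeR (0 at an unadjusted p under 0.05 against both clones, and 0 by DESeq2). The median log2 change of these 9 against the mean of the controls was 0.28, and 8 of them were above 0. On chromosome 4 the order was the other way, with 3.69% higher and 12.5% lower and medians of -0.18 and -0.31, and on chromosome 18 the shares were 4.2% higher and 11.1% lower. Chromosome 7 shifted by clone, with medians of -0.10 against e1, 0.43 against e4 and 0.52 for e1 over e4. The part of these shifts in the gene lists was not tested.

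**Figure D5:**
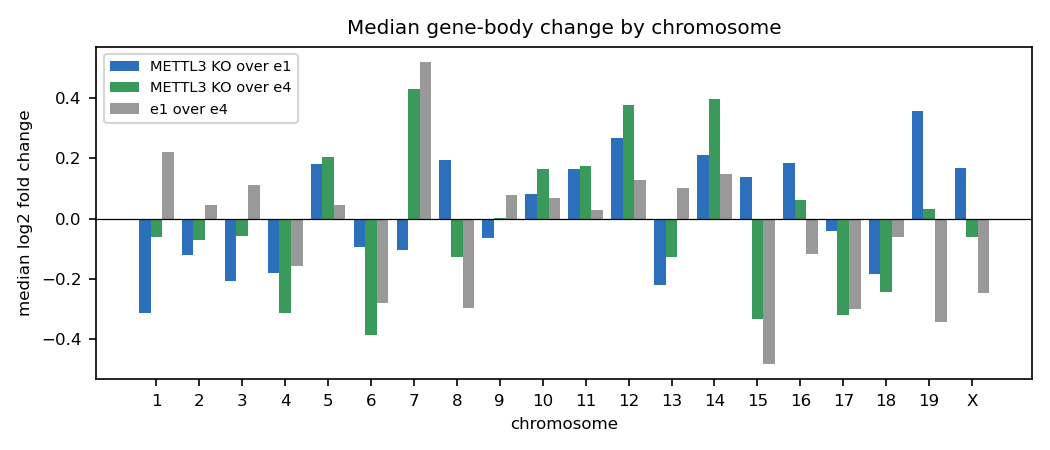
Median log2 fold change of gene-body counts per chromosome for METTL3 KO over control clone e1, METTL3 KO over control clone e4, and e1 over e4. Both METTL3 KO bars are above 0 on chromosomes 5, 10, 11, 12, 14, 16 and 19 and below 0 on chromosomes 1, 2, 3, 4, 6, 13, 17 and 18.

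Y-linked genes separated the 3 clones from one another. Kdm5d, a histone demethylase chosen after its values were seen, had 4.68 and 5.5 CPM in METTL3 KO, 14 and 15.7 CPM in e1 and 0 counts in e4. Ddx3y, an RNA helicase chosen in the same way, had 10.2 and 8.78 CPM in METTL3 KO, 24.8 and 28.7 CPM in e1 and 0.103 and 0.283 CPM in e4. Neither was called, and the knockout line lay between the control clones.

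Transcript length, level and the METTL3 sequence context were compared between called and other genes. The longest transcript had a median of 3874 bases in genes called higher, 3078 bases in genes called lower and 2883 bases in genes not called. Occurrences of GGACT per kilobase of that transcript had medians of 1.08, 1.01 and 0.992, with ranges between the lower and upper quartiles of 0.697 to 1.52, 0.589 to 1.47 and 0.534 to 1.5. The median gene-body level in the controls was 4.21 CPM for genes called higher, 29.2 CPM for genes called lower and 9.39 CPM for genes not called. In METTL3 KO the medians were 11.9, 16.05 and 9.18 CPM. The calls were made from these same levels, so the order of the control medians is partly set by the rule. These are descriptions of the 3 classes, covering 93.7%, 94.7% and 93.9% of their genes.

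Depth limits the lowest values. The gene table totals ran from 7193908 to 12313152 counts in METTL3 KO and from 12464922 to 18751324 counts in the controls, and 12 very abundant genes took 53.5 to 56.8% of them in METTL3 KO and 58.6 to 69.6% in the controls. Replicate libraries of a clone correlated at 0.985 in METTL3 KO, 0.987 in e1 and 0.976 in e4 on the log2 CPM scale across genes, which are not independent replicates.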

How the data were processed

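The authors deposited tables of raw fragment counts per gene body and per exon bin, 1 column per library. Per the file headers, they were made with featureCounts 1.6.3 (paired fragments, a minimum overlap fraction of 0.1, multiple overlaps allowed, a forward-strand setting) against the flattened Ensembl 98 annotation of GRCm38. Per the submitters' processing notes, HISAT2 2.1.0 was the aligner listed. The kit does not mark strand, so reads of overlapping genes on opposite strands cannot be told apart; a fragment spanning several bins counts in each.

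From the deposited counts, exon bins were summed per gene. edgeR 4.0.16 (R 4.3.3) with TMM scaling, filterByExpr and the quasi-likelihood test was fitted to the 6 libraries as 3 clones, with Benjamini-Hochberg adjustment over all genes tested. CPM values use TMM-scaled library sizes. Per-gene SE is the log2 change divided by the root of the F statistic. 3 per-sample columns were not used. DESeq2 1.42.0, other filters, scalings, library sets and call rules were alternatives, and the fit was tested on simulated data.

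Library numbers paired across clones by the rule used: deviations of same-numbered libraries correlated at 0.141, 0.143 and 0.383 across genes, all above 0.1, so a fit with the number as a block was run. That the numbers mark a shared culture or day is not given in the sources used here. Named genes were Mettl3, the 12 largest rises and falls by the smaller of both changes (called, mean of at least 2 CPM, no overlap between groups, no predicted genes), up to 4 called members per list with the smallest p, and genes called in opposite directions by gene body and exon sums. Other genes are said to be chosen after their values were seen, or complete the count of a list. The comparison, gene lists and rules were chosen with earlier results of these data known. Intervals are exact 95% intervals on counts and cover counting error only. 1 gene that the rule would name is not reported here.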

Additional observations from a re-analysis of the deposited data

Results flagged for a closer look

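In 8 of the 137 genes checked, 1 of the 4 control libraries stood apart from the other 3, by a gap above Dixon's critical share of the controls' whole range. Chance gives such a gap in about 1 of 20 groups of 4 values drawn from 1 normal distribution. That rate need not hold for counts from 2 clones, nor for Pax2 and Ccl20, with 2 counts and 1 count in the controls. No gene here was given an explanation.

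The second e4 library was the high one for Pax2 (0.141 CPM, with 0 in the others), Nfia (2.54 CPM, with 0.926 to 1.08 CPM in the others), Emx2 (6.36 CPM, with 4.55 to 4.84 CPM) and Mdm2 (31.3 CPM, with 23 to 24.1 CPM). The first e4 library was the high one for Cxcl1 (0.823 CPM, with 0.191 to 0.267 CPM) and for Rps6, a ribosomal protein gene that was not called (110.5 CPM, with 81.1 to 85 CPM). The first e1 library was the high one for Ccl20 (0.0637 CPM, with 0 in the others), and the second e1 library was the low one for Tmem56 (37.7 CPM, with 53.9 to 55.9 CPM). METTL3 KO stood above all 4 control libraries for Pax2, Nfia, Emx2, Mdm2, Cxcl1 and Ccl20, and below all of them for Rps6 and Tmem56.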

How the results depend on the processing

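The calls rest on both METTL3 KO libraries: when single libraries were left out, the genes called higher ran from 448 to 1283 and lower from 192 to 1194, exon sums higher from 491 to 1073 and lower from 408 to 1192, and genes differing between the control clones from 1148 to 3533, with the lowest counts of METTL3 KO differences without METTL3 KO library 1. A lone remaining library was assumed to vary like the other clones. Without METTL3 KO library 1, 448 genes were higher and 192 lower; without library 2, 512 and 213; without the first e1 library, 729 and 386; and without the second e1 library, 706 and 532. Among the gene-body refits, the smallest shares of the 1923 calls were kept without METTL3 KO library 1 and without library 2. None of the gene-body alternatives called one of the 1923 in the opposite direction, while exon sums did so for Tmem56.

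With library number as a block, 1640 genes were higher, 1379 were lower and 4272 differed between the control clones, and the block kept all 1923 calls. DESeq2's Wald test called 743 genes higher and 571 lower. With 1 adjusted p per gene, the larger of both, 787 were higher and 495 lower. Asking for at least 2-fold against both clones gave 617 higher and 194 lower genes, and 530 higher and 180 lower exon sums. The planned fit with 14 libraries was run with 13 in 7 clones, chosen after seeing the data. The other alternatives kept these counts within 1.5 times. Of 120 named or checked genes that were called, 85 were called without METTL3 KO library 1, 113 by DESeq2's Wald test, which lost Zcchc4, Mat2b, Mtrr, Igf2bp3, Emx2, Slc22a18 and Fen1, and 117 without a filter on low counts. Tox4, which was not called, ran from -0.0101 without the second e4 library to 0.16 when single libraries were left out, and no other direction turned among the 137 genes. Mettl3 was called under every alternative run. Genes with few counts in a group are limited by depth.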
